A study of Mus musculus with 6 samples.

Results

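Kinesins, the motor proteins that move along microtubules, were compared between early and late labelled cells of the Atoh1 lineage of the embryonic mouse hindbrain. The members were chosen by symbol only: every probe set that names a single gene whose symbol is Kif followed by a digit, or is Klc1, Klc2, Klc3, Klc4, Kifap3, Kifc1, Kifc2 or Kifc3. This gave 111 of 34958 single-gene probe sets, which name 44 of 18194 genes; Klc2 was not analysed here. By known role, 13 of the genes are mitotic kinesins, 21 belong to cargo transport and 10 to neither list.

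All embryos were Swiss Webster and carried Atoh1-CreER, a tamoxifen-dependent recombinase driven by Atoh1, with the EGFP reporter RCE. Atoh1 is a transcription factor made in the rhombic lip, from which cerebellar granule cells and several brainstem nuclei arise. Pregnant dams received tamoxifen (4 mg per 35 g) by gavage, at E10.5 for the early group and at E13.5 for the late group. In both groups the r1/isthmus region was taken at E14.5 and EGFP-positive cells were purified by flow cytometry, so the groups differ in the day of labelling and, with it, in the time from labelling to collection. Each group held 3 samples, hybridised to 1 array each (Affymetrix 430 2.0), and precision is limited by this number. The labels do not name litters, so the p-values below reflect only spread between samples, which may be technical.

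Kinesins share a motor domain that turns ATP hydrolysis into movement, and their families differ in the tails that bind cargo, chromosomes or other microtubules. In dividing cells, mitotic kinesins separate the spindle poles, align chromosomes and build the midzone where the cell is cut, and several of them are made only around mitosis. Neurons no longer divide, and their long axons depend on transport kinesins that carry vesicles, mitochondria and cytoskeletal proteins away from the cell body.

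Array medians were 97.7 to 112 units, and 3′ over 5′ signal of the Actb controls, a measure of RNA quality, did not overlap between groups, at 17.4 to 26.2 on early and 12.9 to 16.1 on late arrays, while the Gapdh ratio overlapped (10.6 to 13.2 and 9.47 to 12.1). The part of these ratios in the results below was not tested. Of 5 Atoh1 lineage markers, 4 passed, all with the late group higher (summed signal 17913 to 24274 units on early and 43912 to 48974 on late arrays). Of the regional genes, En2 was present (2134 ± 67.3 units early and 3688 ± 253 late, SD, n = 3 each), while En1 lay below the array median on all early arrays. All 4 markers of postmitotic neurons (Tubb3, Stmn2, Slc17a6 and Dcx) were higher in the early group, with summed signals of 47131 to 50578 against 19213 to 24593 units. Among other cell types, 1 of 6 microglial markers (2 tested) and 2 of 5 GABAergic markers (3 tested) were higher in the early group. Their sums were 498 to 1219 and 837 to 1543 units early, and 308 to 437 and 321 to 521 late. Aif1 and C1qa were at or below the median on all arrays. Over all tested genes, 16.2% had the early group higher and 14% the late group. No endothelial or mesenchymal marker passed, with 3 tested in each list (sums of 403 to 2125 and 364 to 2072 units early, 231 to 1258 and 287 to 673 late). Cdh5, Pecam1, Lum and Dcn were at or below the median on all arrays. Of 4 oligodendrocyte precursor genes 2 favoured the early group and 1 the late group (sums of 2547 to 3083 against 847 to 1103 units). Of 5 glial genes (3 tested) 1 favoured each group (8430 to 9918 against 4278 to 6708 units), with Aqp4 and Gfap at or below the median throughout. Of 3 erythroid genes only 1, Hbb-y, was tested, and it did not pass (limma adjusted p = 0.575). It stood at 13, 4.11 and 4657 units on early arrays 1 to 3 and at 233, 326 and 258 late. The high erythroid signal thus lay on early replicate 3, and its part in the results below was not tested. The erythroid sums were 75.9 to 4722 units early and 251 to 348 late.

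The kinesins divided by role. Every mitotic kinesin that could be tested was higher in the late group, between 3.75-fold and 12.7-fold, or between 1.32-fold and 9.83-fold where any signal under the array median was set to that median (called the floor below). Of the tested cargo transport genes, 10 were higher in the early group, between 1.73-fold and 5.29-fold, and none in the late group. A gene was read from its brightest single-gene probe set and tested if that signal lay above its array's median on at least 3 of the 6 arrays; it passed at a limma Benjamini-Hochberg adjusted p below 0.05 over all 23471 tested probe sets. Of the 44 genes, 35 were tested, 11 passed toward the early group, 10 toward the late group and 14 did not pass. Over all 11063 tested genes 30.2% passed: 16.2% had the early group higher and 14% the late group. The median log2 difference, early minus late, was -2.98 over the 10 tested mitotic and 0.79 over the 20 tested cargo transport genes, against -0.03 over all tested genes. With the floor these medians were -2.65 and 0.74, and 9 mitotic genes passed, Kifc1 not. Over all tested genes with the floor, 16.8% passed toward the late group and 17.8% toward the early group. In sorted bulk cells, fewer cells of a type and less RNA per cell cannot be told apart.

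**Figure D1:**
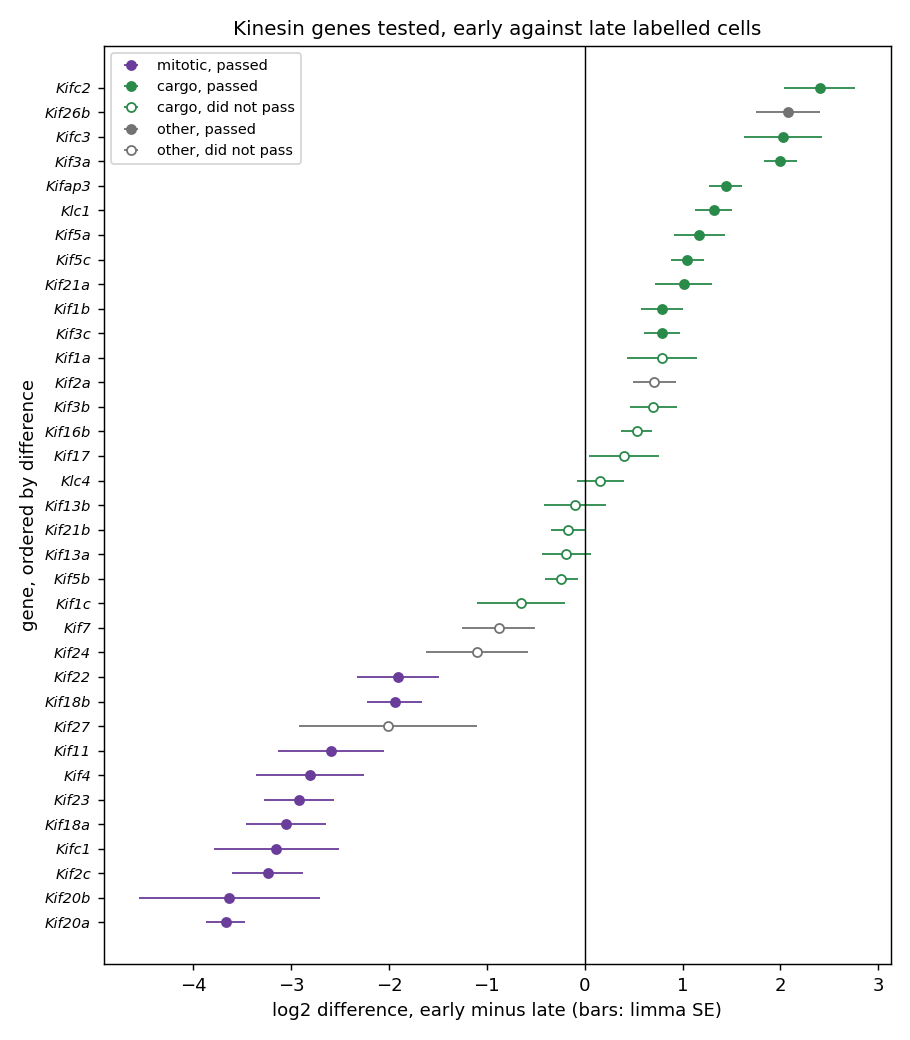
Log2 difference of signal, early minus late, for the 35 tested kinesin genes in order of size; bars are limma standard errors, filled points passed an adjusted p of 0.05. The 10 mitotic genes lie between -3.67 and -1.91, and the 10 cargo transport genes that passed between 0.79 and 2.40.

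The mitotic kinesins that were higher in the late group include motors of spindle assembly (Kif11), of chromosome movement (Kif18a, Kif22, Kif2c) and of the midzone and cytokinesis (Kif20a, Kif23, Kif4). Of 13 genes, 10 were tested, and each of the 10 passed with the late group higher, as did 14% of all tested genes. Kif20a and Kifc1 entered the test through the late arrays alone, since no early array lay above its median, so the count is a description. For 3 tested genes (Kif22, Kif23 and Kif2c) all 6 arrays lay above the median. In each of the 10 genes the lowest late array lay above the highest early array, which held for 26.4% of all tested genes. Kif14, Kif15 and Kif2b were not tested, with at most 49.9 units on any array. Leaving out late replicate 1, 2 or 3 left 5, 6 and 5 of the 10 calls, while all 10 stayed without any single early array. Over all tested genes, calls toward the late group fell from 1544 to 668, 704 and 650 without late replicate 1, 2 or 3. Without early replicate 1, 2 or 3 they were 1488, 1521 and 1376. On the same arrays 4 of the 5 Atoh1 lineage markers were also higher in the late group, and their part in these differences was not tested.

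**Figure D2:**
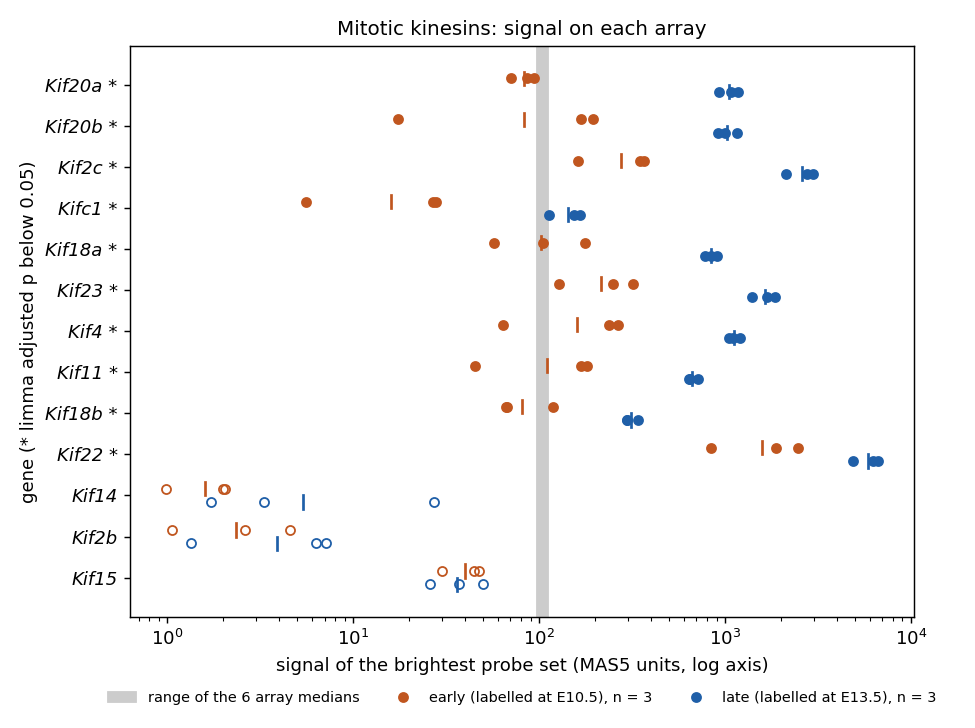
MAS5 signal of the brightest probe set of each mitotic kinesin on each of the 6 arrays (log axis); short lines are geometric means, open circles mark genes that were not tested, and the grey band is the range of the array medians. In all 10 tested genes the late points lie to the right of the early ones, while Kif14, Kif2b and Kif15 lie below the band.

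The kinesin-6 family acts in cytokinesis. Kif20a, which brings regulators to the central spindle, stood at 93.9, 70.4 and 85.8 units on early arrays 1 to 3 and at 929, 1073 and 1177 on late arrays. The groups lay far apart with little spread in either: 12.7-fold, a log2 difference of -3.67 ± 0.20 (SE; limma adjusted p = 0.00112), or 9.83-fold with the floor. Kif23, a subunit of the centralspindlin complex that bundles midzone microtubules, stood at 248, 128 and 318 units early and 1402, 1861 and 1677 late. It was 7.56-fold higher in the late group (log2 -2.92 ± 0.36, limma adjusted p = 0.0035). Kif20b, which acts late in cytokinesis, stood at 194, 17.3 and 168 units early and 918, 1165 and 1004 late. Early replicate 2 was far below the other early arrays, and the 12.4-fold difference had the widest standard error of the 10 genes (log2 -3.63 ± 0.92, limma adjusted p = 0.0332). With the floor at the array median it was 6.91-fold, and its call was lost without late replicate 1 (limma adjusted p = 0.0943), 2 (0.1) or 3 (0.0994).

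Kinesins of spindle and chromosomes followed the same direction. Kif11, the kinesin-5 that slides spindle poles apart, stood at 167, 180 and 45.2 units early and at 719, 636 and 650 late. Early replicate 3 was the lowest array, and the late arrays were 6.02-fold higher (log2 -2.59 ± 0.54, limma adjusted p = 0.0185), or 4.47-fold above the floor. The 2 further probe sets of Kif11 also passed in the late direction, 1 of them (1.72-fold with the floor) not in 5 of the 6 fits without a single array. Kif4, a chromosome-bound kinesin that shortens midzone microtubules, stood at 265, 237 and 64 units early and 1208, 1052 and 1096 late, 7.02-fold apart (limma adjusted p = 0.0148) and 5.85-fold with the floor. Again early replicate 3 lay lowest and the late arrays were tightly grouped. Without late replicate 1, 2 or 3, the calls of Kif11 (limma adjusted p = 0.0683, 0.0599 and 0.0655) and Kif4 (0.0587, 0.0509 and 0.056) were lost.

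Kif18a, a kinesin-8 that dampens chromosome movements at the metaphase plate, stood at 105, 57 and 177 units early and at 910, 779 and 843 late. Its late arrays were 8.28-fold higher (log2 -3.05 ± 0.41, limma adjusted p = 0.00454), 6.71-fold above the floor. Kif18b, its relative at growing microtubule ends, stood at 84 ± 30.4 units early and 311 ± 26.9 late (SD, n = 3), 3.84-fold apart (limma adjusted p = 0.00552) and 2.83-fold with the floor. Kif2c, a kinesin-13 that takes microtubules apart at kinetochores, stood at 367, 162 and 348 units early and 2762, 2959 and 2132 late, 9.44-fold apart (limma adjusted p = 0.00265). Its groups did not come near each other, but this probe set is of a type that can cross-hybridise with other transcripts. The 2 other tested probe sets of Kif2c, not of this type, passed in the same direction, 3.52-fold and 3.74-fold apart. These entered the test through the late arrays alone, with no early array above its median, and with the floor their late signals exceeded the early ones 2.25-fold and 1.86-fold.

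Kifc1, a kinesin-14 that moves toward minus ends and focuses spindle poles, stood at 26.7, 27.7 and 5.56 units early and at 153, 113 and 166 late, so that all 3 early arrays were below their medians. The fitted 8.86-fold difference (log2 -3.15 ± 0.64, limma adjusted p = 0.0172) rests on these dim signals: with the floor it was 1.32-fold and did not pass (limma adjusted p = 0.185). It also did not pass without late replicate 1 (limma adjusted p = 0.0645) or 3 (0.0669). The probe set is of a type that can match near-identical transcripts, so signal from the close copy Kifc5b cannot be told apart here. Kif22, a chromosome-arm kinesin, was the brightest mitotic member by its probe set, at 1727 ± 826 units early and 5943 ± 921 late (SD, n = 3), 3.75-fold apart (limma adjusted p = 0.0216). That probe set is also of a cross-hybridising type, and 2 others of Kif22 also passed in the late direction (limma adjusted p = 0.0291 and 0.00553). Their early signals lay below the median on all or all but 1 array, and with the floor the late signals exceeded the early ones 2.82-fold and 6.2-fold. The first of these calls was lost in 5 of the 6 fits without a single array. The brightest one did not pass when late replicate 1, 2 or 3 was left out (limma adjusted p = 0.0586, 0.0744 and 0.0812).

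Promoters of the mitotic kinesins are shown because the tested ones moved together. A second reason is that G2/M genes are known for short promoter elements. These are the cell cycle homology region (CHR, here TTTGAA) and the CCAAT box, with E2F sites (TTTGGCGC or TTTCGCGC) in genes of G1/S. Exact matches on both strands were sought in the 250 bases before each gene start in RefSeq promoters of GRCm38.p6, which held 12 of the 13 mitotic genes and 15 of the 21 cargo transport genes. Some kinesin promoters held several matches, and none of those printed here overlap each other. TTTGAA stood in 5 of 12 mitotic promoters (41.7%) and 1 of 17 cargo promoters (5.88%), against 16% of all 32851 promoters. CCAAT stood in 8 of 12 (66.7%) and 7 of 17 (41.2%) against 33.8%, and both together in 3 of 12 mitotic promoters (25%) and none of 17 against 5.55%. These are counts of promoters, and Kif1a and Kif1b have 2 each among the 17. The 2 of Kif1b overlap and hold the same CCAAT matches, and the cargo match to TTTGAA is in 1 of the 2 of Kif1a. An E2F match stood in 2 mitotic promoters, of Kif15 and Kif18a, and in no cargo promoter, against 0.654% of all. The 12 mitotic promoters include those of Kif14, Kif15 and Kif2b, which were not tested. Of these, Kif14 held TTTGAA and CCAAT, Kif15 TTTGAA and Kif2b CCAAT. Among the mitotic genes higher in the late group, TTTGAA stood only in Kif11, Kif22 and Kif2c, and together with CCAAT only in Kif11 and Kif22. A match is a description of letters, not of binding. The first 4 sequences belong to the genes of largest difference with a promoter in the table, 3 mitotic and 1 of cargo transport, and Kif11 and Kif22 were added after their matches were seen, as promoters with both TTTGAA and CCAAT. Capitals mark the matches, on either strand.
Kif20b, chr19:34922108-34922357, plus strand: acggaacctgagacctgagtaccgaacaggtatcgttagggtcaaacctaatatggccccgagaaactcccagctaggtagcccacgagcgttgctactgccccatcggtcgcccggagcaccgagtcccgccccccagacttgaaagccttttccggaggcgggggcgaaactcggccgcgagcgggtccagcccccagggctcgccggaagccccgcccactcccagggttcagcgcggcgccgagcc
Kif2c, chr4:117178773-117179022, minus strand: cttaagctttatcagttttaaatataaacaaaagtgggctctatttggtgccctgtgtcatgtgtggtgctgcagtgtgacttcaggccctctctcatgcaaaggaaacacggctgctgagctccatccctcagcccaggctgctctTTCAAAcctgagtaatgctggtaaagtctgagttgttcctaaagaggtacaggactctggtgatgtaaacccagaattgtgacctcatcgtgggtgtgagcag
Kifc1, chr17:33890634-33890883, minus strand: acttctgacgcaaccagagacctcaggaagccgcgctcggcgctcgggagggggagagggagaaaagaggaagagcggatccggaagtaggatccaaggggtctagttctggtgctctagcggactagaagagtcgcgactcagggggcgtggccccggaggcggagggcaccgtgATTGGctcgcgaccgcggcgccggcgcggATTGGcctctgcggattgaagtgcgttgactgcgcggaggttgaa
Kif3a, chr11:53567119-53567368, plus strand: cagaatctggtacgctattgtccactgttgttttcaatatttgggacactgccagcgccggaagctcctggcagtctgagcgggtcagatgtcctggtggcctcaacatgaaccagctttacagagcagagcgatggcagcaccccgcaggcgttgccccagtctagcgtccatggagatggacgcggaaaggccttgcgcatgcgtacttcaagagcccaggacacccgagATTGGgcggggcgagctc
Kif11, chr19:37376132-37376381, plus strand: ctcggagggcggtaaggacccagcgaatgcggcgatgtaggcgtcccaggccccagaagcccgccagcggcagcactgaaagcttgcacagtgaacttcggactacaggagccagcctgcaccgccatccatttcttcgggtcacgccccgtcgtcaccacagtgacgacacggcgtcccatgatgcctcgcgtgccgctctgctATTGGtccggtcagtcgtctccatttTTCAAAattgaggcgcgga
Kif22, chr7:127042421-127042670, minus strand: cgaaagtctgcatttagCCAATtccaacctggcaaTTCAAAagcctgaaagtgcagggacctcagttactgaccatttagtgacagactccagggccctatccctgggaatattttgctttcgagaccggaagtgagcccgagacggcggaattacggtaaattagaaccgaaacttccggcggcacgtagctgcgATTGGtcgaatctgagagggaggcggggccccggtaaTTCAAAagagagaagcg
In Kif11 the CCAAT match began 45 bases and the TTTGAA match 19 bases before the gene start, and in Kif22 the nearer pair began 54 and 17 bases before it. Kifc1 had a pair of CCAAT matches, 74 and 45 bases before the start, and no TTTGAA, while Kif2c had TTTGAA alone, 103 bases before the start. The 250 bases of Kif20b, which was 12.4-fold higher in the late group, held none of these letters. Among the early-high genes, Kif3a held CCAAT 18 bases before the start, and Kif26b, which is in neither list, held both elements. No early-high cargo transport gene with a promoter here held TTTGAA or an E2F match. CCAAT was thus found in genes of both directions, and TTTGAA among the early-high genes only in Kif26b.

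Proteins that work with mitotic kinesins, listed by known function, were higher in the late group in 15 of 16 genes and in no gene higher in the early group, against 14% and 16.2% of all tested genes. The exception was Cit, a kinase of the midbody, at 369 ± 57.4 units early and 416 ± 51.4 late (SD, n = 3; limma adjusted p = 0.567). Anln, a scaffold of the cleavage ring, stood at 166 ± 53.3 units early and 1819 ± 202 late, 11.4-fold apart (limma adjusted p = 0.00157). Tpx2, which nucleates spindle microtubules and binds Kif11, was 8.67-fold higher (limma adjusted p = 0.00223), and Aurkb, the kinase that acts on Kif2c, Kif20a and Kif23, 8.36-fold (limma adjusted p = 0.00115). The count stayed at 15 without any single array. It was 9 when probe sets of types that can match several transcripts were left out, a choice that also takes genes such as Aurkb out of the test. Over all alternatives it ran from 9 to 16. The probe sets of Cit and Aurkb are both of a cross-hybridising type.

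Cargo transport kinesins were higher in the early group for 10 of 20 tested genes, against 16.2% of all tested genes, and for none in the late group. The 10 came from the subunits of kinesin-1 (Kif5a, Kif5c and Klc1) and kinesin-2 (Kif3a, Kif3c and Kifap3), from Kif1b and Kif21a, and from Kifc2 and Kifc3. Without late replicate 1, 2 or 3, 5, 6 and 5 genes passed, and without early replicate 1, 2 or 3 between 8 and 9. Over all tested genes, calls toward the early group fell from 1796 to 1098, 1167 and 1033 without late replicate 1, 2 or 3. Leaving out early replicate 1, 2 or 3 left 1529, 1630 and 1523 of them. Kif3a, Kif5c, Kifap3, Kifc2 and Klc1 passed without any single array. In the same arrays the summed signal of the 4 postmitotic neuron markers was higher in the early group, as given above, and their part in these differences was not tested. In 12 of the 20 genes every early array lay above every late array, as in 26.0% of all tested genes. In 2 (Kif21b and Kif5b) every late array lay above every early array, as in 26.4% of all tested genes.

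**Figure D3:**
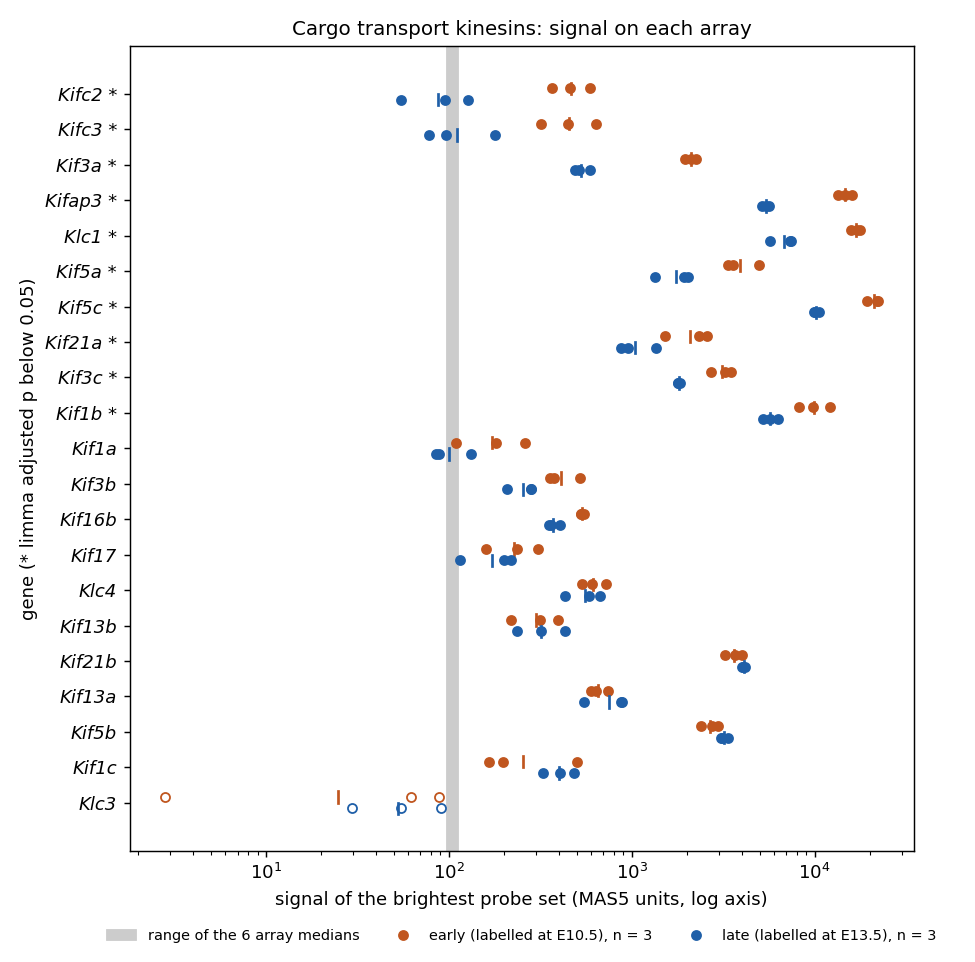
MAS5 signal of the brightest probe set of each cargo transport kinesin on each of the 6 arrays (log axis), with geometric means as short lines, open circles for the untested Klc3, and the range of the array medians in grey. The 10 genes marked with a star have early points to the right of the late ones, while Kif21b and Kif5b show the reverse order without passing.

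Kinesin-1, the main motor of fast axonal transport, is built of Kif5 heavy chains and Klc light chains. Kif5c, a neuronal heavy chain, stood at 21893, 19260 and 22201 units on early arrays 1 to 3 and at 9983, 10622 and 9887 on late arrays. The early arrays were 2.07-fold higher, with no overlap (log2 1.05 ± 0.17, limma adjusted p = 0.00734), and a second probe set of Kif5c gave 2.04-fold in the same direction, a call lost in 2 of the 6 fits without a single array. Kif5a, the other neuron-specific heavy chain, stood at 3575, 3366 and 4947 units early and 1336, 2027 and 1933 late. It was 2.25-fold higher in the early group (log2 1.17 ± 0.26, limma adjusted p = 0.0218). It did not pass without late replicate 1 (limma adjusted p = 0.0711), 2 (0.0519) or 3 (0.0652). Kif5b, the heavy chain found in most cell types, stood at 2394, 2760 and 2955 units early and 3073, 3119 and 3381 late. Here the order was reversed, with all late arrays above the early ones, but the 1.18-fold difference did not pass (log2 -0.24 ± 0.17, limma adjusted p = 0.346).

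The light chains bind cargo and hold the motor inactive without it. Klc1, the light chain enriched in neurons, stood at 17102, 17710 and 15826 units early and at 5731, 7323 and 7406 late. The early group was 2.49-fold higher by this probe set (log2 1.32 ± 0.19, limma adjusted p = 0.00538). Klc4 stood at 609, 536 and 720 units early and 433, 581 and 673 late, with overlapping groups (limma adjusted p = 0.658). Klc3, known from the sperm tail, was not above the median on any array.

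Kinesin-2 carries vesicles in neurons and moves building material into cilia, as a trimer of 2 motors and the adaptor Kifap3. Kif3a, the motor subunit common to its forms, stood at 1963, 2116 and 2260 units early and at 488, 512 and 588 late. This 4-fold difference (standard error 0.17 on the log2 scale, limma adjusted p = 0.00161) was the largest of the kinesin-2 subunits, and 2 further probe sets of Kif3a gave 3.46-fold and 4.2-fold in the same direction. The other tested probe set of Kif3a, also above the median on all 6 arrays, was 1.35-fold apart with overlapping groups and did not pass (limma adjusted p = 0.322). Kifap3 stood at 14734, 13367 and 15955 units early and 5174, 5618 and 5405 late, 2.71-fold apart (limma adjusted p = 0.003), with 2.7-fold in a second probe set. Kif3c, a neuronal partner of Kif3a, stood at 3499, 3233 and 2701 units early and 1784, 1800 and 1847 late. Its 1.73-fold difference passed (log2 0.79 ± 0.18, limma adjusted p = 0.024) but did not when late replicate 1, 2 or 3 was left out (limma adjusted p = 0.0863, 0.0875 and 0.0895).

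Kif3b, the other partner of Kif3a, stood at 524, 357 and 375 units early and 207, 281 and 282 late. The groups did not overlap, yet the 1.62-fold difference did not pass (log2 0.70 ± 0.24, limma adjusted p = 0.0788). Kif17, a dendritic and ciliary motor, stood at 235 ± 74.9 units early and 178 ± 56 late (SD, n = 3; limma adjusted p = 0.445).

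The kinesin-14 members Kifc2 and Kifc3, which move toward microtubule minus ends, were among the cargo genes with large differences. Kifc2, known from dendrites and axons, stood at 588, 460 and 367 units early and at 54.8, 95.4 and 128 late. Only 1 late array lay above its median, and the difference was 5.29-fold (log2 2.40 ± 0.36, limma adjusted p = 0.00637), or 4.14-fold with the floor. Kifc3, a motor of apical transport, stood at 451, 321 and 638 units early and 96.3, 179 and 78.4 late. It was 4.09-fold higher in the early group, 3.75-fold with the floor (log2 2.03 ± 0.40, limma adjusted p = 0.0148), and did not pass without late replicate 1 (limma adjusted p = 0.0608) or 3 (0.0567). The third tested member of the family, the mitotic Kifc1, was higher in the late group.

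Of the kinesin-3 family, which carries synaptic vesicle precursors and mitochondria, Kif1b passed in its brightest probe set, at 12195, 8165 and 9818 units early and 5214, 5727 and 6282 late. The 1.73-fold difference (log2 0.79 ± 0.21, limma adjusted p = 0.0402) was lost in 5 of the 6 fits without a single array: without early replicate 1 (limma adjusted p = 0.074) or 3 (0.0734) and late replicate 1 (0.133), 2 (0.12) or 3 (0.102). Kif1a, the synaptic vesicle precursor motor, stood at 110, 180 and 260 units early and 132, 88.7 and 85 late, with overlapping groups (limma adjusted p = 0.162). Kif1c, a broadly expressed relative, stood at 504, 166 and 197 units early and 403, 481 and 329 late (limma adjusted p = 0.324). Its early replicate 1 lay above all late arrays, and without that array the late group was higher (log2 -1.15, limma adjusted p = 0.0281).

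Kif13a and Kif13b, which move endosomes and polarity proteins, did not pass. Kif13a stood at 638, 602 and 741 units early and 550, 870 and 889 late (limma adjusted p = 0.604), and Kif13b at 314, 393 and 219 early and 237, 321 and 434 late (limma adjusted p = 0.85). The groups overlapped in both genes. Kif16b, an endosomal motor, stood at 537 ± 11 units early and 373 ± 26.5 late (SD, n = 3) without overlap, 1.44-fold apart (limma adjusted p = 0.0587).

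In the kinesin-4 family, Kif21a, an axonal motor that limits microtubule growth, stood at 2329, 2586 and 1517 units early and 873, 953 and 1349 late. It was 2.01-fold higher in the early group (log2 1.01 ± 0.29, limma adjusted p = 0.0475), a call at the threshold that was lost without early replicate 1 (limma adjusted p = 0.104) or 2 (0.0957) and late replicate 1 (0.15), 2 (0.142) or 3 (0.0692). Its relative Kif21b, a dendritic motor, stood at 3983, 3255 and 3682 units early and 4021, 4082 and 4154 late. The late arrays were marginally above the early ones, a 1.13-fold difference that did not pass (limma adjusted p = 0.496).

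Probe sets of 1 gene passed in opposite directions in 2 of 16 kinesin genes with at least 2 tested probe sets, Kif1b and Klc1, against 0.856% of 5024 such genes in the whole table. Kif1b had 7 and Klc1 3 tested probe sets, and the share in the whole table was not matched for this number. In Kif1b, which is spliced into forms with different cargo tails, probe set 1455182_at stood at 261, 233 and 584 units early and 1618, 1429 and 1688 late. It was 4.78-fold higher in the late group (log2 -2.26 ± 0.37, limma adjusted p = 0.00836), a call that stayed without any single array, while the brightest probe set was higher in the early group. Of the 5 other tested probe sets of Kif1b none passed, with log2 differences from -0.76 to 0.92. The mean over all Kif1b probe sets gave a log2 difference of -0.22 (limma adjusted p = 0.544).

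In Klc1, whose light chain tail is also spliced into many forms, probe set 1428881_at stood at 227, 255 and 231 units early and 374, 388 and 361 late. It was 1.58-fold higher in the late group (limma adjusted p = 0.0313), whereas 1448541_at was 1.92-fold higher in the early group (limma adjusted p = 0.0369), like the brightest one. However, 1448541_at entered the test through the early arrays alone, with no late array above its median, and was 1.65-fold apart with the floor. The call of 1428881_at was lost in 5 of the 6 fits without a single array (limma adjusted p up to 0.116) and that of 1448541_at in all 6 (up to 0.117). Kif5b, which did not pass in its brightest probe set, had 1418428_at at 959, 566 and 632 units early and 1546, 1286 and 1520 late, 2.07-fold higher in the late group (limma adjusted p = 0.0285). That call was also lost in 5 of the 6 fits (limma adjusted p up to 0.104). Which transcripts each probe set reads is not given in the sources used here.

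**Figure D4:**
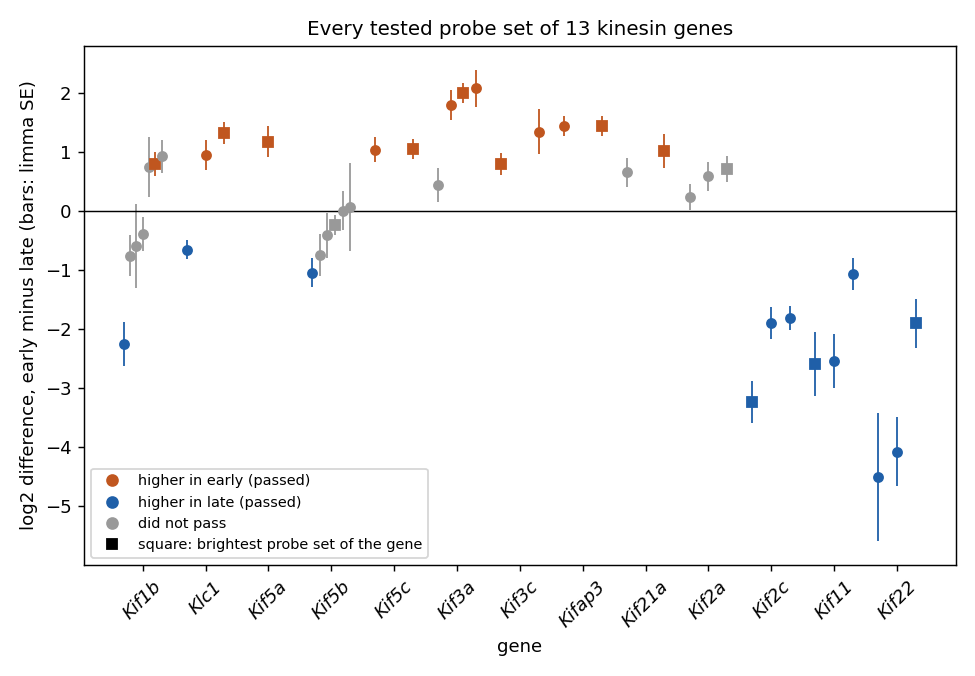
Log2 difference, early minus late, of every tested probe set of 13 kinesin genes, with limma standard errors; squares mark the brightest probe set and colours the direction of those that passed. Kif1b and Klc1 have probe sets that passed on both sides of zero, while those of Kif3a, Kifap3, Kif2c, Kif11 and Kif22 that passed lie on 1 side.

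Ratios of related kinesins within an array were compared for 9 pairs of probe sets. The height of such a ratio depends on the probes, so only its difference between the groups is read. The log2 ratio of Kif5c over Kif5b was 2.97 ± 0.20 on early arrays and 1.67 ± 0.11 on late arrays (SD, n = 3), a difference of 1.30, and that of Kif5a over Kif5b differed by 1.41. In kinesin-13, the ratio of Kif2a over Kif2c, whose probe set is of a cross-hybridising type, differed by 3.95. In kinesin-14 that of Kifc2 over Kifc1 differed by 5.55. All early Kifc1 signals lay below the array median, and with the floor the latter difference was 2.45. The ratio of Klc1 over Klc4 was 1.16 higher and that of Kif21b over Kif21a 1.18 lower in the early group, with early and late arrays apart in each of these 6 pairs. For the 6 pairs the exact two-sided permutation test gave p = 0.1, the smallest that 3 against 3 arrays allow, or 0.15 adjusted over the 9 pairs, so this test cannot reach 0.05 here. With the mean over each gene's probe sets, the differences were smaller for Kif5a over Kif5b (0.53, exact permutation p = 0.2), Kif21b over Kif21a (-0.42, exact permutation p = 0.5) and Klc1 over Klc4 (0.25, exact permutation p = 0.6). The ratios of Kif3c over Kif3b (difference 0.09, exact permutation p = 0.5), Kif13a over Kif13b (-0.10, exact permutation p = 0.8) and Kif1a over Kif1c (1.44, exact permutation p = 0.3) overlapped between the groups.

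**Figure D5:**
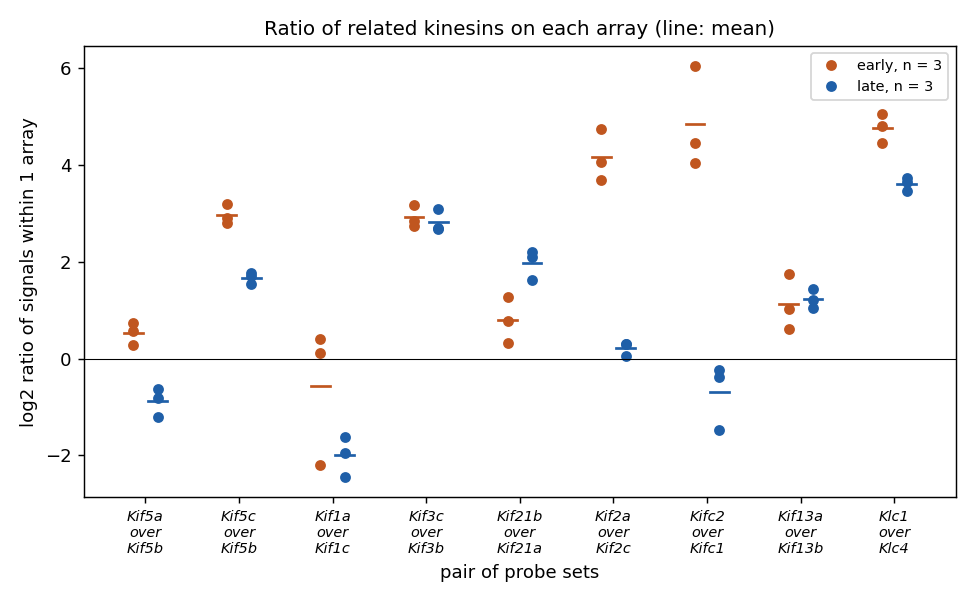
Log2 ratio of the signals of 2 related kinesins on each of the 6 arrays, with the group mean as a line. Early and late points are apart for 6 of the 9 pairs, with a difference of 3.95 for Kif2a over Kif2c. For Kifc2 over Kifc1 it is 5.55 as plotted and 2.45 with the floor, the early Kifc1 signals being below the array median.

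Of the 10 kinesins in neither list, 5 were tested. Kif26b, known for its part in cell adhesion in the developing kidney, stood at 853, 591 and 357 units early and at 146, 130 and 125 late. It was 4.23-fold higher in the early group (log2 2.08 ± 0.33, limma adjusted p = 0.00768), and the groups were apart although the early arrays spread widely. Kif2a, a kinesin-13 that trims microtubules in axon branches as well as in spindles, stood at 4728, 4372 and 5835 units early and 2857, 3667 and 2627 late. These groups did not overlap, but the 1.64-fold difference fell short of the threshold (log2 0.71 ± 0.22, limma adjusted p = 0.058).

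Kif7, the ciliary kinesin that regulates Gli factors in hedgehog signalling, stood at 48.1, 57.3 and 118 units early and 148, 102 and 133 late, near the array medians (limma adjusted p = 0.137). Without early replicate 3 it passed toward the late group (limma adjusted p = 0.0226), with both remaining early signals below the median, and with the floor on all arrays it was 1.19-fold apart (limma adjusted p = 0.369). Kif24, which acts at centrioles, stood at 222, 123 and 53.7 units early and 280, 271 and 189 late, the groups overlapping (limma adjusted p = 0.173). Kif27, a relative of Kif7, did not pass either (limma adjusted p = 0.158), except without early replicate 1 (limma adjusted p = 0.0186), where the remaining early signals, 15.9 and 12.8 units, lay far below the medians. With the floor on all arrays it was 1.28-fold apart (limma adjusted p = 0.388). Kif6, Kif9, Kif12, Kif26a and Kif28 were not tested, since fewer than 3 arrays lay above the median.

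Other parts of the transport machinery were more mixed. Of 20 tested adaptors and regulators that link kinesins to cargo, 6 passed toward the early and 1 toward the late group (16.2% and 14% of all tested genes), with a median log2 difference of 0.30. The early count was 4 to 7 without single arrays, 3 at a threshold of 0.01 or without the filter, and 2 without both replicate 3 arrays. Sybu, which links kinesin-1 to syntaxin vesicles, stood at 2665 ± 685 units early and 511 ± 104 late (SD, n = 3), 5.18-fold apart (limma adjusted p = 0.00257). Ppfia4, a liprin that binds Kif1a, was 4.84-fold higher (limma adjusted p = 0.00586) and Fez1, a kinesin-1 adaptor of axonal transport, 4.26-fold (limma adjusted p = 0.00191). The member higher in the late group was Rhot2, a mitochondrial GTPase that recruits kinesin, 1.95-fold (limma adjusted p = 0.0499), a call lost without early replicate 1 (limma adjusted p = 0.0906) or 2 (0.0788) and late replicate 1 (0.133), 2 (0.0947) or 3 (0.164). The mitochondrial adaptors Trak1 and Trak2 and the scaffold Mapk8ip3 did not pass (limma adjusted p = 0.0975, 0.18 and 0.991).

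Of 18 tested genes of dynein, the motor of transport back to the cell body, and of its cofactor dynactin, 6 passed toward the early and 1 toward the late group (16.2% and 14% of all tested genes), with a median of 0.49. Dync1i1, a neuronal intermediate chain of dynein, was brighter by 2.47-fold on early arrays (limma adjusted p = 0.0175). Its call did not hold without late replicate 1 (limma adjusted p = 0.0554) or 3 (0.0693). The light chain gene Dynll2 was brighter by 2.13-fold (limma adjusted p = 0.013), and this did not hold without late replicate 2 (0.0526) or 3 (0.0591). The early count depended on the arrays: it was 4, 3 and 3 without early replicates 1, 2 and 3 and 1, 1 and 0 without late replicates 1, 2 and 3, and ran from 0 to 9 over all alternatives. Nde1, a dynein regulator needed for progenitor division, stood at 176 ± 153 units early and 1658 ± 111 late (SD, n = 3), 15.7-fold apart (limma adjusted p = 0.0327) and 9.13-fold with the floor. Its call was lost without early replicate 3 (limma adjusted p = 0.0506) and late replicate 1 (0.0954), 2 (0.0961) or 3 (0.0994).

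Of 12 tested genes of intraflagellar transport, whose particles kinesin-2 moves along cilia, 4 passed, each with the late group higher, against 14% of all tested genes, at a median log2 difference of -0.21 over the list. Ift74 stood at 433 ± 10.3 units early and 1053 ± 197 late (SD, n = 3), 2.4-fold apart (limma adjusted p = 0.00794). Ift80 was 2.39-fold (limma adjusted p = 0.02) and Ift172 1.97-fold higher (limma adjusted p = 0.0384). The call of Ift80 was lost without late replicate 1 (limma adjusted p = 0.0653), 2 (0.0737) or 3 (0.0762), and that of Ift172 without those (0.117, 0.0947 and 0.13) or early replicate 1 (limma adjusted p = 0.0764) or 3 (0.0845). The late count was 2, 5 and 2 without early replicates 1, 2 and 3 and 1 without any single late array, and ran from 0 to 5 over all alternatives.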

How the data were processed

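What the authors deposited were intensities: linear MAS5 signals for every probe set, MAS5 being the tool listed in the submitters' processing notes. Neither its version nor any pooling of embryos was given in the sources used here. Each array's mean without the lowest and highest 2% was 500, which hides any change in the total amount of RNA in a cell. Detection calls were not used here; the array median served as the mark for dim signals. Of 45101 probe sets, 64 controls were left out of the tests; names came from the platform annotation (34958 with 1 symbol, 932 with several, 9211 with none).

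Log2 signals were fitted with limma 3.58.1 (lmFit, then eBayes with prior degrees of freedom of 2.26; R 4.3.3) on all 23471 tested probe sets and all 6 arrays, two-sided, with Benjamini-Hochberg adjustment over them. Differences are early minus late with limma's standard error, and a fold is the antilog of the difference. Ratios used exact permutation tests (scipy 1.17.1). The replicate number was not used as a block, since no label says that it marks a shared litter or day. Same-numbered arrays did not deviate together (correlations -0.0291, -0.0747 and -0.00558). Values in every array were given for the genes of largest difference among those that passed without overlap between groups (up to 8 mitotic, 8 cargo and 3 other), the brightest 3 of each list that did not pass and the members of the pairs, plus the largest 3 of each partner list. Kif1b, Kif16b, Kif17, Kif18b, Kif22, Kif27, Cit, Rhot2, Trak1, Trak2, Mapk8ip3 and the probe sets that went opposite ways were named after their values were seen. Members and lists were chosen with earlier results of these data known. Alternatives were the replicate block, quantile normalization, centring, an offset of 5.97 units (the 10th percentile), eBayes with trend and robust settings, no filter or one at each array's 70th percentile, array weights, a floor at the array median, a threshold of 0.01, other choices of probe set, and leaving out arrays with the same probe sets tested.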

Additional observations from a re-analysis of the deposited data

How the results depend on the processing

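All 10 tested mitotic kinesins kept their lower signal in the early group under every alternative that tested them. The count past the threshold fell to 5 at an adjusted p of 0.01 and to 5 without a filter, and ran from 5 to 10 when single arrays were left out. Of the 10 cargo transport genes, 5 passed at 0.01, 4 without a filter, 6 with the mean over probe sets, 5 with the replicate block, 2 without both replicate 3 arrays and from 5 to 9 without single arrays (Kif1b, at -0.22 with the mean over probe sets, reversed there). No cargo transport gene was higher in the late group except for 1, Kif1c, without early replicate 1 (range 0 to 1). Among other kinesins the counts were 0 to 1 late without single arrays (Kif27 without early replicate 1, Kif7 without early replicate 3), and 2 early with the floor at the array median and with trend and robust settings. The cargo median was 0.30 with the mean over probe sets and otherwise moved by less than the spread between arrays. Without the filter 18192 genes were tested and 8.12% passed, and with the block 17.9%. Of all tested genes 12.9% passed at a threshold of 0.01 and 7.87% without both replicate 3 arrays. Leaving out single arrays left 15.2% to 28.5%. As a check of the pairing, no early array correlated best with the late array of its own number, so the replicate block, which left 8 mitotic and 5 cargo calls, measures no known pairing. Low signals and 3 arrays a group limit the precision, most for genes near the array median. The cause of the lost calls was not tested.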
